A study of Oryza sativa with 6 samples.

Results

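The mitochondrial gene *ClpB-m* (*Os02g0181900*) and the chloroplast gene *ClpB-c* (*Os03g0426900*) are the organelle ClpB disaggregases among the 925 genes listed for rice leaves, so 2 genes of 925 are described here. They were picked by identifier, with their higher expression in the *Dap1* mutant already known. Their values are therefore given as a description, with no test between the groups. By their identifiers *ClpB-m* lies on chromosome 2 and *ClpB-c* on chromosome 3. RefSeq has a gene named *CLPB-M* or *CLPB3* and a gene named *CLPB-C* or *CLPB2* on the same chromosomes of a *japonica* assembly (ASM3414082v1).

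ClpB proteins are ring-shaped AAA+ ATPases of the Hsp100 family. They thread aggregated polypeptides through a central pore and hand them back to Hsp70 and its DnaJ partners for refolding. Plants have a cytosolic ClpB, called HSP101, which *Arabidopsis* needs for acquired heat tolerance, and nuclear-encoded forms that are imported into mitochondria and chloroplasts. The chloroplast form is needed for normal chloroplast development in *Arabidopsis*.

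RNA was taken from leaves at the booting stage, from *Dap1* plants and from wild-type (WT) plants of the *japonica* variety Zhonghua11 (ZH11), with 3 libraries per genotype. *Dap1*, whose genotype label is Dap, is a dominant insertion mutant of ZH11 with a T-DNA upstream of the meristem regulator *OsWUS*. The mutant plants were heterozygous, no homozygous seedling having been found, and all plants grew in the field. *OsWUS* had 77, 100 and 105 counts in the *Dap1* libraries, against 0 counts in each WT library. The sources used here give neither the day nor the hour of sampling. The paper reports later heading in *Dap1*, and both genotypes were sampled at the booting stage, so the days of sampling may differ between them. Day and hour cannot be told apart from the genotype. Leaf identity could not be checked, because 0 of 6 leaf marker genes looked up (Rubisco small subunit and chlorophyll-binding protein genes) are listed, and the table holds called genes only.

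Each gene has a raw count of fragments and an FPKM, which is the count divided by transcript length and by the mapped fragments of the library. The counts over the listed genes summed to 601642 to 666483 in *Dap1* and 244181 to 314019 in WT libraries. These totals follow the selection of the genes and not the depth, so relative library sizes were taken from the ratio of count to FPKM. They were 0.952 to 1.06 in *Dap1* and 0.862 to 1.11 in WT.

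*ClpB-m* was expressed at a low level in WT leaves and 10.3-fold higher in *Dap1* leaves. Its FPKM was 42.09, 40.75 and 42.14 in the *Dap1* libraries, against 3.86, 3.84 and 4.37 in the WT libraries. The groups did not overlap, and the lowest *Dap1* library lay far above the highest WT library, WT replicate 3. The fragments counted were 2466, 2591 and 2740 in *Dap1*, against 263, 204 and 271 in WT. The mean FPKM was 41.7 ± 0.788 in *Dap1* and 4.02 ± 0.300 in WT (SD, n = 3 each). The log2 fold change of edgeR's fit to the counts was 3.37 (standard error 0.054).

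*ClpB-c* was already well expressed in WT leaves and was 4.27-fold higher in *Dap1*. Its FPKM was 213.25, 209.90 and 214.54 in the *Dap1* libraries, against 48.11, 51.03 and 48.45 in the WT libraries. These groups did not overlap either, and within each group the libraries lay close together. The counts were 11366, 12337 and 12722 in *Dap1*, against 3053, 2507 and 2791 in WT. The mean FPKM was 212.6 ± 2.40 in *Dap1* and 49.2 ± 1.60 in WT (SD, n = 3 each). The log2 fold change was 2.09 (standard error 0.027).

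**Figure D1:**
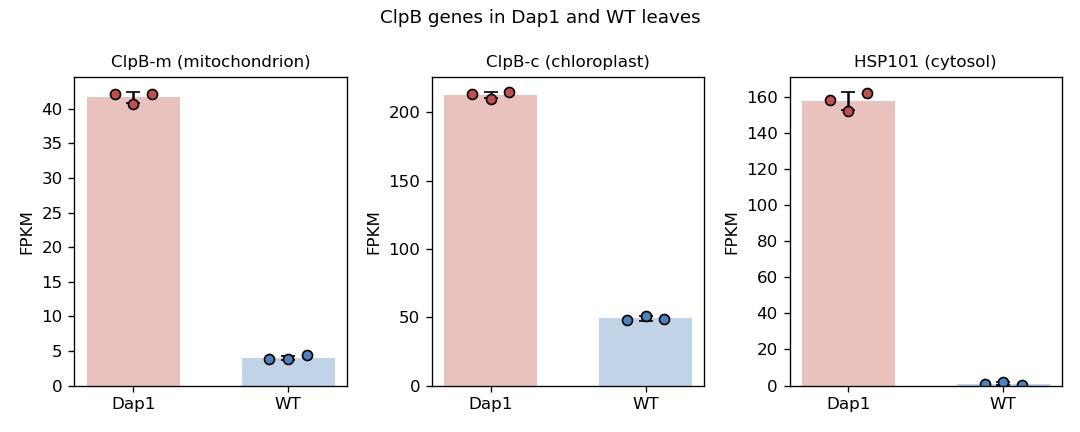
FPKM of the 3 ClpB genes in *Dap1* and WT leaves, with a point per library, bars at the mean and error bars of 1 SD (n = 3 per group). Each panel has its own axis from 0, and *Dap1* means of 41.7, 212.6 and 157.5 stand beside WT means of 4.02, 49.2 and 0.923 for *ClpB-m*, *ClpB-c* and *HSP101*.

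The spread between libraries was small for both genes. The coefficient of variation of the library-size-scaled counts of *ClpB-m* was 1.89% in *Dap1* and 7.45% in WT, where its counts alone would give 1.96% and 6.38%. For *ClpB-c* it was 0.486% in *Dap1* and 2.99% in WT, where the counts alone would give 0.908% and 1.90%. For *ClpB-m* the spread was thus near counting error in both groups. For *ClpB-c* it was above counting error in WT and below it in *Dap1*, where the FPKM instead gave 1.13%. With 3 libraries per group such a spread is imprecise, and its difference from counting error was not tested. The sources call the samples biological replicates, without saying which plants each came from.

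The authors listed only genes they had called in these same libraries, so being called carries little information here. Of the 925 genes, 98.6% passed an adjusted p-value of 0.05 with edgeR's quasi-likelihood test and an absolute log2 fold change of 1 in either direction. The share called higher in *Dap1* was 56.9%, and both ClpB genes were among these 526 genes. The libraries of the genotypes did not overlap in FPKM for 99.0% of the genes, and for 57.0% the *Dap1* libraries were the higher ones, as for both ClpB genes. By log2 fold change *ClpB-m* was in place 112 and *ClpB-c* in place 221 of the 526 called higher. By mean FPKM among all listed genes the order was reversed, with *ClpB-c* in place 25 in *Dap1* and 39 in WT, and *ClpB-m* in place 83 in *Dap1* and 257 in WT.

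The scaling of the libraries sets the size of these values. With TMM factors and with DESeq2's size factors computed over the listed genes, the median of all genes moved by -0.45 and -0.85 on the log2 scale. Both kinds of factor take most genes to be alike between groups, whereas the listed genes were selected for differing. The genes called were 342 higher and 393 lower, and 251 higher and 393 lower, against 526 higher and 386 lower. Under these scalings the log2 fold change was 2.92 and 2.52 for *ClpB-m*, and 1.64 and 1.24 for *ClpB-c*, with both genes still higher in *Dap1*.

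The fold change of *ClpB-m* exceeded that of *ClpB-c* by 1.28 on the log2 scale, a factor of 2.43, and this difference does not depend on the scaling. The same contrast is seen within each library. The FPKM of *ClpB-c* was 5.07, 5.15 and 5.09 times that of *ClpB-m* in the *Dap1* libraries, against 12.5, 13.3 and 11.1 times in the WT libraries. The chloroplast gene was thus the more abundant in all 6 libraries, and its lead was smaller in every *Dap1* library than in any WT library. The ratio averaged 5.10 ± 0.043 in *Dap1* and 12.3 ± 1.11 in WT (SD, n = 3 each). In absolute terms the order was the opposite, since *ClpB-c* was higher in *Dap1* by 163.4 FPKM and *ClpB-m* by 37.6 FPKM.

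The cytosolic *HSP101* (*Os05g0519700*), the other ClpB gene listed, was nearly silent in WT leaves and differed far more. Its counts were 5162, 5256 and 5492 in *Dap1*, against 21, 22 and 12 in WT. Its FPKM was 158.32, 152.11 and 162.21 in *Dap1*, against 0.74, 1.78 and 0.25 in WT. The log2 fold change was 8.14, with a standard error of 0.32 from the spread of the replicates, and was 7.41 when taken from the mean FPKM. These differ because the ratio of count to FPKM, after division by relative library size, was 32.1 to 34.3 in *Dap1* but 14.3 to 47.6 in WT. For *ClpB-m* this ratio was 61.5 to 61.6 and for *ClpB-c* 56.0 to 57.3 over all 6 libraries, so counts and FPKM of the organelle genes give the same picture.

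The order of the ClpB genes by FPKM therefore differed between the genotypes. In *Dap1* leaves *ClpB-c* was highest, *HSP101* next and *ClpB-m* lowest, whereas in WT leaves *ClpB-c* was highest, *ClpB-m* next and *HSP101* lowest. No neighbours in either order overlapped across the 3 libraries. The summed FPKM of the ClpB genes was 413.66, 402.76 and 418.89 in the *Dap1* libraries, against 52.71, 56.65 and 53.07 in the WT libraries. *ClpB-c* made up 51.6% ± 0.454 of this sum in *Dap1* and 90.9% ± 0.695 in WT, *ClpB-m* 10.1% ± 0.058 in *Dap1* and 7.45% ± 0.736 in WT, and *HSP101* 38.3% ± 0.479 in *Dap1* and 1.67% ± 1.36 in WT (SD, n = 3 each). Without WT replicate 2 the *HSP101* share in WT was 0.937%. The share of *ClpB-c* was thus lower in *Dap1* although its own level was higher, and the share of *ClpB-m* was slightly higher. Since whole leaves were sampled, more cells expressing a gene and more RNA per cell cannot be told apart.

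**Figure D2:**
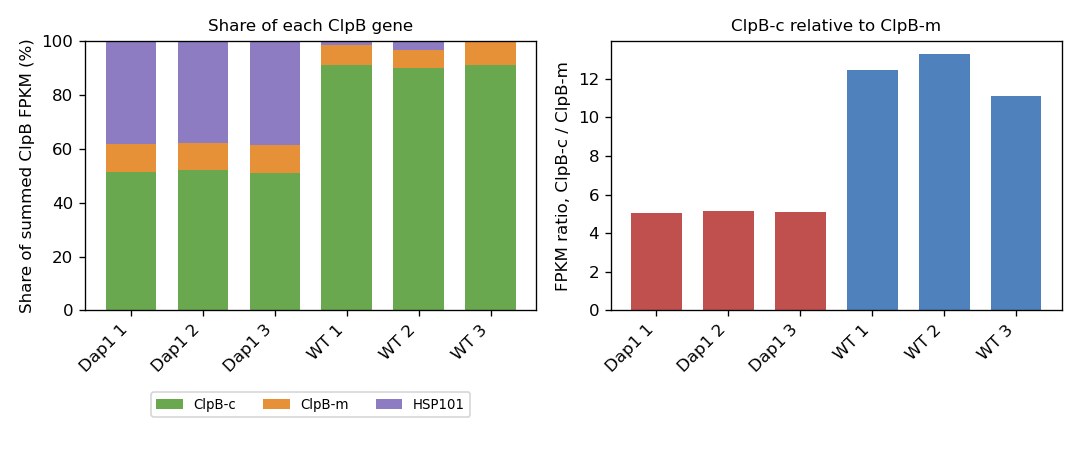
Left, the share of the summed ClpB FPKM taken by *ClpB-c*, *ClpB-m* and *HSP101* in each library, in percent. Right, the FPKM of *ClpB-c* divided by that of *ClpB-m* in each library, which was 5.07 to 5.15 in *Dap1* and 11.1 to 13.3 in WT.

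The organelle genes share much of their annotation. Both carry the terms ATP binding, nucleotide binding, protein refolding and response to heat, and neither has a KEGG class. *ClpB-c* is placed in the chloroplast and plastid stroma and is the only listed gene (1 of 925) with the term chloroplast organization. *ClpB-m* is placed in the mitochondrion but also in the chloroplast stroma and envelope, so the table's terms do not assign it to a single organelle. *HSP101* lacks both protein refolding and response to heat and has cellular response to heat in their place. Response to heat and protein refolding were given together to 3 listed genes, which were *ClpB-m*, *ClpB-c* and *Os03g0218500*, described as similar to a 70 kD heat shock protein.

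Of the 27 genes with the term response to heat, 26 were called higher in *Dap1* and 1 lower, beside 56.9% of all listed genes called higher. Their median log2 fold change was 4.49, against 1.15 over all listed genes. With genes at or under 3 counts in a group held at their bound, these medians were 4.24 and 1.15. *ClpB-m* was in place 17 and *ClpB-c* in place 23 of the 27, so both lay in the lower part of this group. Of the 13 genes with the term protein refolding 12 were called higher and 0 lower, with a median of 2.14, and *ClpB-m* was in place 5 and *ClpB-c* in place 8. Without *ClpB-m* and *ClpB-c*, 24 of the other 25 heat genes were called higher, with a median of 4.90, or 4.49 with the bounds. For protein refolding it was 10 of the other 11, with a median of 2.14. All these genes were listed because they differed in these libraries, and the part of heat-response genes in the difference was not tested.

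The chaperones of the mitochondrion are taken here without *OsCPn60beta1*, which also has the term cytosol and lay above *ClpB-m*, at 3.63. Of the 4 listed genes, 3 were called higher in *Dap1*, beside 56.9% of all listed genes. Their median log2 fold change was 1.76, and all 4 lay below *ClpB-m*. The nearest was *OsHsp24.1*, a mitochondrial small heat shock protein of the kind that holds unfolded proteins, at 3.01 (66.1 ± 3.54 FPKM in *Dap1* and 8.30 ± 1.20 FPKM in WT, SD, n = 3 each). Mitochondrial Hsp70, the partner of ClpB in that organelle, is listed as *OsISC24* and *OsISC23*. *OsISC24* had a log2 fold change of 2.14, with 33.7 ± 0.778 FPKM in *Dap1* and 7.63 ± 0.325 FPKM in WT (SD, n = 3 each). *OsISC23*, the more abundant of the pair, had a value of 0.99, just inside the threshold of 1, and its FPKM was 72.6 ± 1.85 in *Dap1* and 36.2 ± 0.649 in WT (SD, n = 3 each). It passed the threshold without *Dap1* replicate 2 or WT replicate 1, at 1.002 and 1.009, and with limma on log2(FPKM + 0.1), at 1.001. It was 0.54 with TMM factors and 0.14 with DESeq2's size factors. Under each of these scalings 2 of the 4 genes were called higher, beside 342 and 251 of all 925.

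All 5 listed chaperones of the chloroplast were called higher, beside 56.9% of all listed genes. Their median log2 fold change was 1.69, and 4 of them lay below *ClpB-c*. The chloroplast Hsp70, *OsHsp70CP1*, was the most abundant, with 590.1 ± 8.53 FPKM in *Dap1* and 247.97 ± 6.43 FPKM in WT (SD, n = 3 each), a log2 fold change of 1.25. *OsCPn60alpha1*, a subunit of the plastid chaperonin that folds Rubisco, had a value of 1.74. The exception was *OsHSP26*, a chloroplast small heat shock protein, with 236 to 262 counts in the *Dap1* libraries and 0 counts in each WT library. Set against a floor of 3 counts per library, it was at least 80.1-fold higher in *Dap1*. Under TMM factors 3 of the 5 genes were called higher, beside 342 of all 925. Under DESeq2's size factors it was 1 of the 5, beside 251 of all 925.

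Chaperonins that the table places in no single organelle were called higher in 4 of 4 cases, beside 56.9% of all listed genes. Their median log2 fold change was 2.01. *OsCPn60beta1*, named as a plastid chaperonin subunit but with the terms mitochondrion and cytosol, had the highest value of these, 3.63, above that of *ClpB-m*. With DESeq2's size factors 2 of the 4 were called higher, beside 251 of all 925 genes.

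The cytosolic Hsp70 genes differed more than those of the organelles. All 4 were called higher, beside 56.9% of all listed genes. Their median log2 fold change was 4.35, with a range of 3.01 to 6.30. Every one lay above *ClpB-c* and 3 lay above *ClpB-m*. *OsctHSP70-1* was the most abundant, at 520.1 ± 1.54 FPKM in *Dap1* and 26.7 ± 1.83 FPKM in WT (SD, n = 3 each). The DnaJ proteins, which stimulate the ATPase of Hsp70, were called higher in 7 of 7 cases, beside 56.9% of all listed genes. With TMM factors it was 6 and with DESeq2's size factors 5, beside 342 and 251 of all 925 genes. The median log2 fold change of the DnaJ genes was 3.50, or 2.65 with 2 genes that had 3 counts or fewer in every WT library held at their bound. *OsDjC23* had the smallest value, 1.31, and *OsDjC53* the largest, at least 75.9-fold higher. *HSA32*, which acts with HSP101 in acquired heat tolerance in rice, had a log2 fold change of 4.24.

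**Figure D3:**
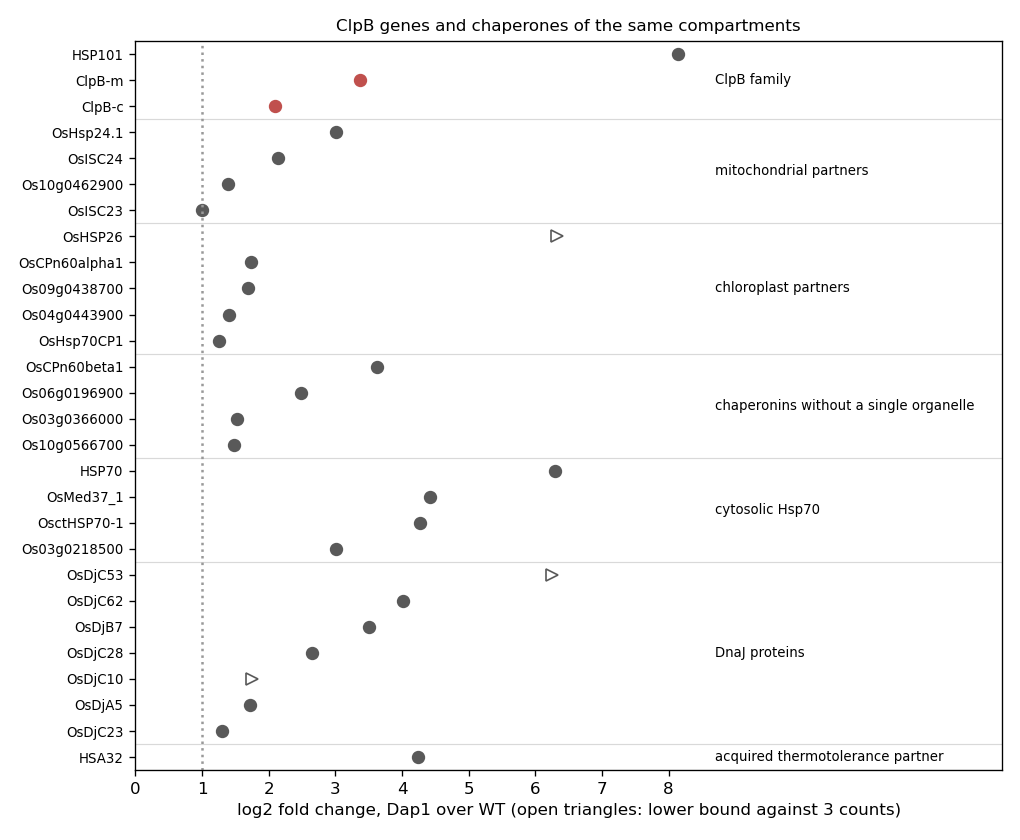
Log2 fold change, *Dap1* over WT, of the ClpB genes and of the chaperones listed for each compartment, with the organelle ClpB genes in red and a dotted line at the threshold of 1. Open triangles are lower bounds for genes with 3 counts or fewer in every WT library. The genes in the mitochondrial list reach at most 3.01, below *ClpB-m* at 3.37. *OsCPn60beta1*, which also has the term mitochondrion, is shown apart from them and reaches 3.63.

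The genes whose profile over the 6 libraries was most like each ClpB gene were sought among the 278 genes whose mean count reached 50 in both groups. Likeness was the root mean square difference of log2(FPKM + 0.01) after subtracting the WT mean of each gene. A small value therefore means mainly a like difference between the genotypes, and need not mean a like scatter between libraries. For *ClpB-m* the nearest gene was *PGK*, a cytosolic phosphoglycerate kinase of glycolysis, at 0.092. Its FPKM was 28.16, 26.71 and 29.44 in the *Dap1* libraries, against 2.62, 2.57 and 3.42 in the WT libraries. It was followed by *Os01g0524700*, an armadillo-like repeat protein, at 0.134, the chaperonin *OsCPn60beta1* at 0.147, the DnaJ protein *OsDjB7* at 0.161 and *Os01g0757500*, a CS domain protein, at 0.195.

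For *ClpB-c* the nearest genes were *Os07g0543100*, similar to beta-amylase of starch breakdown, and *OsTRX*, similar to the chloroplast redox protein thioredoxin M, both at 0.055. The FPKM of *OsTRX* was 70.78, 72.82 and 68.02 in the *Dap1* libraries, against 15.25, 16.27 and 15.54 in the WT libraries. The mitochondrial Hsp70 *OsISC24* came next at 0.062, before *OsAGP27* at 0.086 and the temperature stress-induced lipocalin *Os02g0612900* at 0.090. The organelle ClpB genes were not near each other by this measure, at 0.894. That distance mostly restates the difference of their fold changes given above. *ClpB-c* was in place 38 in the order around *ClpB-m*, and *ClpB-m* in place 153 in the order around *ClpB-c*. These likenesses rest on 6 libraries in 2 groups and on genes selected for differing between them, and they are given as a description.

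**Figure D4:**
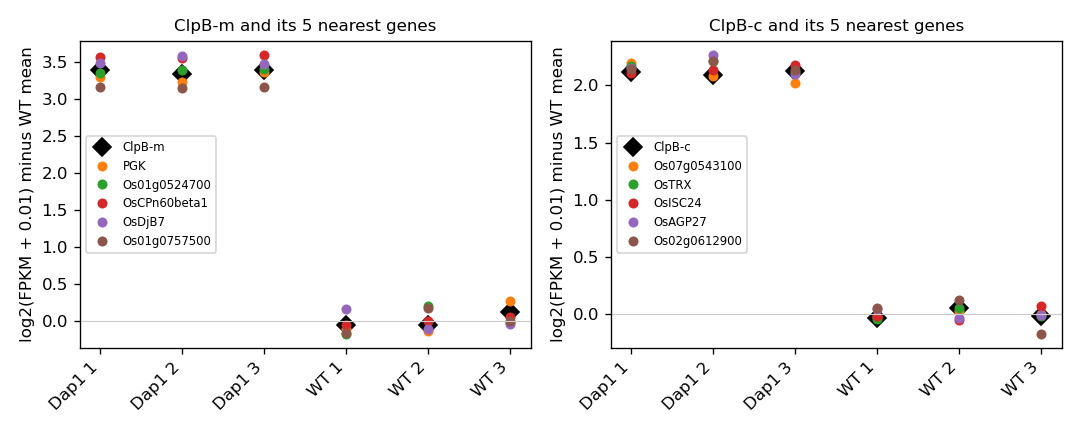
Log2(FPKM + 0.01) minus the WT mean of the gene in each library, for *ClpB-m* (left) and *ClpB-c* (right) as black diamonds and their 5 nearest genes as coloured points. The *Dap1* libraries lie at 3.34 to 3.39 for *ClpB-m* and 2.09 to 2.12 for *ClpB-c*, and the WT libraries of every gene shown lie around 0.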

How the data were processed

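Leaf RNA of 3 *Dap1* and 3 WT samples was sequenced after oligo(dT) enrichment. Per the paper's methods, Fastp was used for read filtering, Bowtie 2 for the removal of rRNA, HISAT 2 for alignment to Nipponbare, Stringtie for transcripts and RSEM for expression. Versions, genome build and the use of strand in counting are not given in the sources used here. Raw counts and FPKM were deposited by the authors for the 925 genes they called, so depth over all genes is unknown. Deposited columns of group means, fold changes, p-values and FDR were not used.

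Relative library sizes were the median of count over FPKM in the 258 genes whose FPKM reached 2 in all libraries. The quasi-likelihood test of edgeR 4.0.16 (R 4.3.3) was fitted to the counts of all listed genes at once, unfiltered and unblocked, with Benjamini-Hochberg adjustment over the 925 genes. A call needed an adjusted p-value under 0.05 and a log2 fold change beyond 1 in size. Standard errors were the log2 fold change over the square root of F, without sign. That form is too small for *HSP101*, whose error was taken from the replicates. The fits were also run on simulated data in which 200 of 925 genes were changed. Since 98.6% of the listed genes were called, that setting differs from these data and cannot check the calls made here. No pair of replicates agreed within sampling noise (chi-square per gene of 1.81 to 2.20). Bounds used 3 counts per library and cover counting error only.

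The ClpB genes, chaperone lists and tests were chosen with earlier results of these data known. The named genes were the ClpB genes, the chaperone lists with their extremes and ClpB partners, and the 5 nearest genes of each organelle ClpB gene. Alternatives were TMM and DESeq2 size factors, DESeq2 1.42.0, limma 3.58.1 on log2(FPKM + 1) and log2(FPKM + 0.1), a filter at a mean count of 10, a replicate block, leaving out each library, and the ratio of mean FPKM. None of the 3 ClpB identifiers matched RefSeq directly (0 matched), and their names did. No coordinates or sequences are given. Summaries and plots were made in Python 3.11.15 with pandas 2.3.3 and matplotlib 3.10.9.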

Additional observations from a re-analysis of the deposited data

How the results depend on the processing

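*ClpB-m* and *ClpB-c* stayed higher in *Dap1*, past the threshold of 1, under every alternative tried. Leaving out each library, the log2 fold change was 3.34 to 3.43 for *ClpB-m* and 2.08 to 2.12 for *ClpB-c*, and their difference 1.23 to 1.35. Under the other alternatives *ClpB-m* ranged over 2.52 to 3.37 and *ClpB-c* over 1.24 to 2.11, lowest with DESeq2's size factors. Their difference moved most with limma on log2(FPKM + 1), to 0.998, since the added 1 weighs more on the low WT level of *ClpB-m*. On that scale 394 of the 925 genes were called, against 912, and 858 to 882 with each library left out. The 11 other protein refolding genes had 10 called higher, 7 with TMM factors and 6 with DESeq2's size factors, and the 25 other response to heat genes had 24, 22 and 21. Over all 925 genes these counts were 526, 342 and 251. With the replicate block, 912 genes were called and the values were 3.37 for *ClpB-m* and 2.09 for *ClpB-c*. Same-numbered libraries did not deviate together (correlations of -0.007, -0.016 and -0.028 over 431 genes). This does not show whether they were sampled as pairs, which the sources used here do not say. Depth limits the precision of the 204 to 271 counts of *ClpB-m* and the 12 to 22 counts of *HSP101* in WT.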
